A study of Hordeum vulgare with 39 samples.

Results

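The genes described here are 50 barley (Hordeum vulgare) genes whose RNA was most abundant in the endosperm at 24 days after pollination (DAP) and far lower in the other parts of the grain. They were chosen by their measured levels, from 83990 transcript entries, with a rule on group means in counts per 1000000 (CPM, the count of a gene as a part of the total count of its library). CPM is not divided by gene length, so the order of genes by CPM is an order of their counts. The highest of the 13 group means had to be endosperm at 24 DAP, had to reach 20 CPM, and had to be at least 10 times the highest group mean of embryo and of seed maternal tissues. The rule allowed up to 200 genes and found 50, each the only transcript entry of its gene. All 50 also passed the filter on low counts used for testing. The levels that chose the genes are given below as a description and without a test.

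All libraries came from the six-rowed spring cultivar Morex, raised in a climate chamber, with no mutant allele or treatment in the labels. Grains were dissected by hand into endosperm, embryo and the surrounding seed maternal tissues, and poly-A RNA was sequenced. The 5 endosperm groups cover 4, 8, 16, 24 and 32 DAP. The 4 embryo groups start at 8 DAP and the 4 groups of seed maternal tissues end at 24 DAP, and each of the 13 groups has 3 libraries. The labels do not say whether the 3 libraries of a group came from separate plants, so the p-values measure the spread between these libraries, which may be technical. Total counts ran from 6148131 to 36732347 per library, and the 3 endosperm libraries of 24 DAP held 11593753, 13584276 and 21911989 counts. The library numbers in the sample titles fall into 6 runs that differ between stages and tissues; what they mark is not stated.

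The cereal endosperm is the storage tissue of the grain. After a phase of nuclear division and cell formation it fills with starch and storage protein, and it dries as the grain matures. In barley most of the storage protein is hordein, a group of prolamins encoded by families of closely similar genes, several of which lie on chromosome 1H. The deposited files do not pair their identifiers with gene names, so which of the 50 genes belong to such families is not known here, and no role is given to any of them. Counts of near-identical copies are uncertain, because the treatment of reads that match several copies is not given. For the same reason the tissue labels were not checked against marker genes.

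Together the 50 genes took a large share of the endosperm counts from 16 DAP on. At 24 DAP they held 16.8%, 16.9% and 20.1% of the counts of the 3 libraries, a mean of 18.0% ± 1.86 (SD, n = 3). At 16 DAP the shares were 11.9%, 14.7% and 18.1%, so the highest of these libraries lay above the 2 lower libraries of 24 DAP. At 32 DAP they were 10.2%, 11.0% and 9.17%, all below those of 24 DAP. At 8 DAP the shares were 1.46%, 1.29% and 1.88%, and at 4 DAP they were 0.00886%, 0.00961% and 0.0107%. In these dissected bulk samples, fewer cells that express a gene and less of its RNA per cell cannot be told apart.

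**Figure D1:**
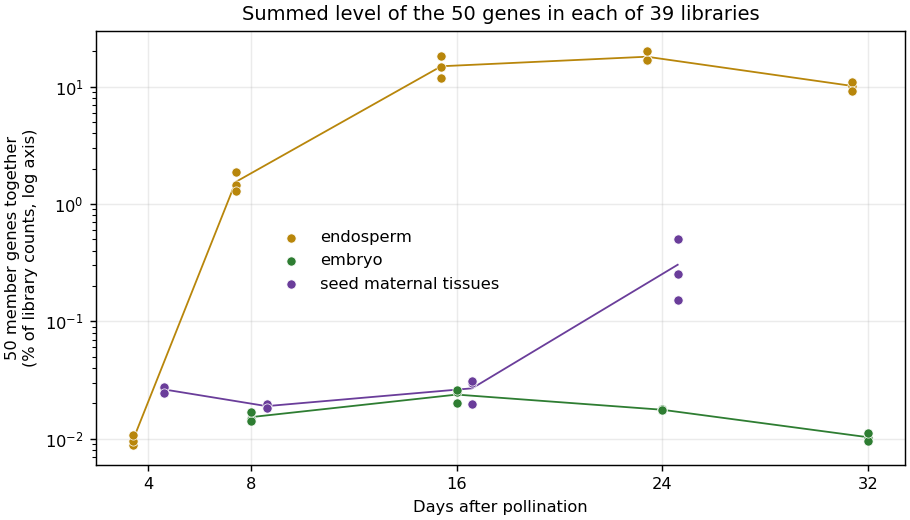
Share of the library counts held by the 50 genes together (%, log axis) against days after pollination; each point is 1 of 39 libraries and lines join the means of 3 libraries, with points of the 3 tissues set slightly apart. Endosperm climbs from about 0.01% at 4 DAP to a mean of 18.0% at 24 DAP, embryo libraries stay between 0.00960% and 0.0263%, and maternal libraries reach 0.153% to 0.503% at 24 DAP only.

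The gap between the 2 highest stages depends on the scaling, although 24 DAP had the higher mean with both scalings. The trimmed mean of M-values (TMM) factor, which corrects library size for a few very abundant genes, was between 0.521 and 0.743 in the 16 DAP endosperm libraries. With it, the scaled share was 23.8% ± 9.71 at 16 DAP and 24.7% ± 3.82 at 24 DAP (SD, n = 3 each), so the difference between these stages was far smaller than the spread between libraries.

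The 50 genes were very unequal. At endosperm 24 DAP, 17 of them had a mean above 1000 CPM, 15 lay between 100 and 1000 CPM and 18 below 100 CPM, with a median of 544 CPM. The gene with the most counts gave 36.2% of their summed CPM, and the first 5 gave 69.3%. Between the highest and the lowest of the 3 libraries of that stage the median ratio was 1.40, and in 6 genes it was above 2.

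The gene with the most counts was HORVU.MOREX.r3.1HG0068040.1. In the 3 endosperm libraries of 4 DAP it had 1.38, 1.98 and 1.30 CPM, and in those of 8 DAP it had 6836, 6215 and 7691 CPM. It reached 44607, 57713 and 68979.9 CPM at 16 DAP, had 61606, 62084 and 71582 CPM at 24 DAP and had 35063, 34018 and 32239 CPM at 32 DAP. The libraries of 16 and 24 DAP overlapped, whereas those of 32 DAP lay below both. The second, HORVU.MOREX.r3.1HG0000780.1, had 23071, 21204 and 31656 CPM at 24 DAP, 18605, 22592 and 26883 CPM at 16 DAP and 10846, 12255 and 9712 CPM at 32 DAP. The third was HORVU.MOREX.r3.6HG0538590.1, with 14496, 13059.7 and 11033 CPM at 24 DAP and 10515, 13299.9 and 8533 CPM at 16 DAP. For both, the libraries of 16 and 24 DAP overlapped as well. The fourth, HORVU.MOREX.r3.2HG0183360.1, had 12654, 11045 and 10856 CPM at 24 DAP, above its 8169, 7120.3 and 4349 CPM at 16 DAP and its 6530.3, 6585 and 6445 CPM at 32 DAP in every library. The fifth, HORVU.MOREX.r3.1HG0001110.1, had 7408, 8715 and 12804 CPM at 24 DAP and 4731, 8460.5 and 14145 CPM at 16 DAP, where its libraries spread about 3-fold and reached the highest value of either stage.

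For most of these genes the 24 DAP level was the top of a plateau and not a separate peak. As a percentage of the 24 DAP mean, the median level was 0.00287% in the earliest endosperm, 5.94% at 8 DAP, 84.3% in the 16 DAP libraries and 65.4% in the 32 DAP libraries. The 24 DAP mean exceeded the 16 DAP mean by a median of 1.19-fold (quartiles 1.10 and 1.48) and the 32 DAP mean by a median of 1.53-fold (quartiles 1.31 and 1.99). For 46 of the 50 genes the first of these ratios was below 2. All 3 libraries of 24 DAP lay above all 3 of 16 DAP in 10 of the 50 genes, and 13.7% of all genes tested show this order. They lay above all 3 of 32 DAP in 31 genes, against 16.7% of all genes tested, and above both stages in 6. The share of all genes above both stages was not counted. Nothing is read from these counts and shares, since the rule used these contrasts. The level at 16 DAP was the closer of the 2 neighbouring stages to that of 24 DAP in 33 genes, and the level at 32 DAP in 17.

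**Figure D2:**
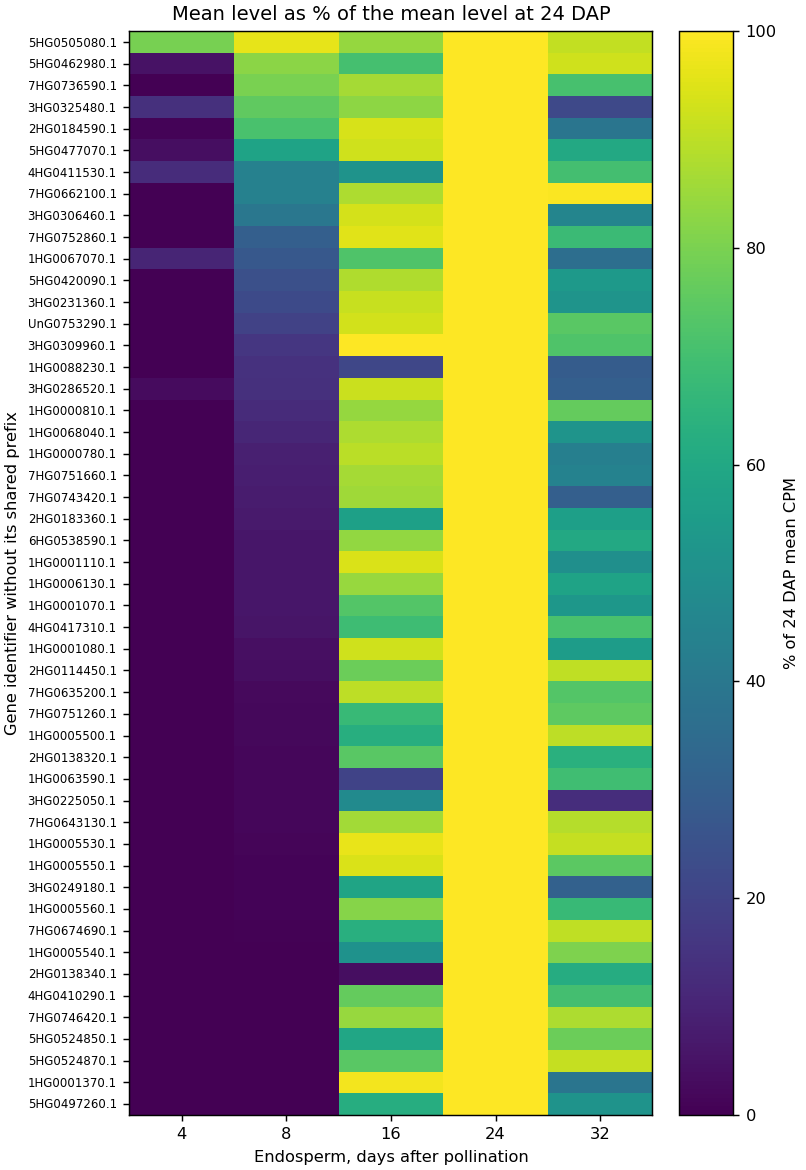
Mean endosperm level of each of the 50 genes (rows, ordered by their level at 8 DAP) at each of the 5 stages (columns), as a percentage of its mean CPM at 24 DAP (colour). The 24 DAP column is 100% by construction; the 16 DAP column is mostly bright (median 84.3%), and the 8 DAP column is dark for all but a few rows (median 5.94%).

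The genes differed in when they first became abundant. A mean of 50% of the 24 DAP level was first reached at 16 DAP by 40 genes, at 8 DAP by 5, only at 24 DAP by 4 and already at 4 DAP by 1. The gene that was already high at 4 DAP was HORVU.MOREX.r3.5HG0505080.1, with 30.8, 31.3 and 45.9 CPM then, 44.8, 40.1 and 45.7 CPM at 8 DAP and 45.7, 43.2 and 46.7 CPM at 24 DAP. Its endosperm means lay between 36.0 and 45.2 CPM over the 5 stages. The latest was HORVU.MOREX.r3.2HG0138340.1, which had 19.5, 2.82 and 9.59 CPM at 16 DAP, 173, 403 and 273 CPM at 24 DAP and 185, 167 and 173 CPM at 32 DAP. All its libraries of 24 and 32 DAP lay far above those of 16 DAP.

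Close to its limits the rule separated genes that hardly differed. The last genes inside 20 CPM were HORVU.MOREX.r3.1HG0001370.1 at 20.1 CPM and HORVU.MOREX.r3.7HG0736590.1 at 20.8 CPM, and the first outside were HORVU.MOREX.r3.1HG0041360.1 at 19.9 CPM and HORVU.MOREX.r3.2HG0207080.1 at 18.3 CPM. At the 10-fold limit, HORVU.MOREX.r3.3HG0309960.1 was inside at 12.1-fold and HORVU.MOREX.r3.7HG0662100.1 at 12.2-fold, with HORVU.MOREX.r3.5HG0459240.1 outside at 9.29-fold and HORVU.MOREX.r3.3HG0320900.1 at 9.05-fold. At the limit on the peak stage, HORVU.MOREX.r3.3HG0309960.1 had 62.74 CPM at 24 DAP and 62.59 CPM at 16 DAP. Just outside, HORVU.MOREX.r3.1HG0088140.1 had 28539.9 CPM at 24 DAP and 28697 CPM at 16 DAP, and HORVU.MOREX.r3.5HG0420110.1 had 4652 CPM and 4771 CPM. Of 185 entries with at least 20 CPM at endosperm 24 DAP and at least 10 times the other tissues, 50 had their endosperm maximum at 24 DAP and 53 at 16 DAP, whereas 44 had it at 8 DAP, 30 in the last and 8 in the first endosperm stage. With TMM factors in the CPM, the same rule gave 49 genes, of which 32 were among the 50. Leaving out 1 endosperm library of 16, 24 or 32 DAP gave 45 to 54 genes; 40 of the 50 remained without replicate 1 of 16 DAP and 41 without replicate 3 of 16 DAP or replicate 3 of 24 DAP.

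The widest spread among the 24 DAP libraries, 4.66-fold, was that of HORVU.MOREX.r3.1HG0088230.1. At 24 DAP it had 1007, 871 and 216 CPM, against 92.8, 63.6 and 293 CPM in the 16 DAP libraries. In those of 8 DAP it had 7.92, 249.5 and 38.0 CPM and in those of 32 DAP 22.4, 569 and 17.6 CPM. A single library held the high value at 8 and at 32 DAP, and a single library held the low value at 24 DAP. This gene had no count in any embryo library.

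The comparisons that follow were tested with edgeR in one model of all 39 libraries, and none of them uses the endosperm libraries of 24 DAP. A gene was called at a Benjamini-Hochberg adjusted p under 0.05, taken over the 29594 genes tested, and a log2 fold change of 1 or more in either direction. The rule still capped each endosperm mean at the 24 DAP level and each embryo and maternal mean at 10% of it, so the counts are read only beside those of all genes.

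Between 4 and 8 DAP, 41 of the 50 genes rose in the endosperm and none was called lower, whereas 25.9% of all genes tested were called higher and 20.9% lower (46.8% in either direction). The median log2 fold change of the 50 was 7.18, against 0.16 over all genes. At 4 DAP, 26 of them had at most 3 counts in every library and 13 had none. For a gene with 3 counts or fewer in every library of 1 group the fold is a lower bound, computed against 3 counts in each library. With these genes at their bound, the median over the 46 genes above that floor in at least 1 of the groups was 5.31. Endosperm 4 DAP libraries carry library numbers of their own, so library number and stage cannot be told apart in this comparison. Scaling by library size alone moved the median of all genes from 0.16 to 0.84 and the share of calls that were higher from 55.3% to 72.0%, with 42 of the 50 genes called higher.

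Among genes with at least 20 CPM in the higher group, the largest fitted changes between 4 and 8 DAP belonged to 2 genes without a count at 4 DAP. HORVU.MOREX.r3.1HG0088230.1, the variable gene above, was at least 365-fold higher at 8 DAP (log2 fold change 14.42 ± 3.45 SE, edgeR adjusted p = 0.00234). HORVU.MOREX.r3.5HG0420090.1 had 74.4, 64.4 and 126 CPM at 8 DAP and was at least 328-fold higher (log2 fold change 14.31 ± 0.83 SE, edgeR adjusted p = 8.4e-13). The smallest called changes in the same set were those of HORVU.MOREX.r3.3HG0325480.1, from 10.3, 12.7 and 7.48 CPM to 58.2, 40.8 and 65.7 CPM (log2 fold change 1.71 ± 0.45 SE, edgeR adjusted p = 0.00227), and of HORVU.MOREX.r3.5HG0477070.1, from 1.51, 3.41 and 3.58 CPM to 41.1, 43.6 and 41.9 CPM (log2 fold change 3.33 ± 0.32 SE, edgeR adjusted p = 3.76e-10). In all 4 of these genes every library of 8 DAP lay above every library of 4 DAP.

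The 5 genes with the most counts at 24 DAP all rose in this interval. HORVU.MOREX.r3.1HG0068040.1 went from a mean of 1.55 to 6914 CPM (log2 fold change 11.39 ± 1.02 SE, edgeR adjusted p = 9.17e-11). HORVU.MOREX.r3.2HG0183360.1 went from 1.68, 1.27 and 2.44 CPM to 696, 698 and 1130.0 CPM (log2 fold change 8.23 ± 0.57 SE, edgeR adjusted p = 2.82e-13). The other genes of this group had log2 fold changes of 12.53, 9.94 and 10.53 and were called as well.

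Between 8 and 16 DAP, 42 of the 50 genes rose in the endosperm and none was called lower, against 10.1% of all genes called higher and 13.1% lower (23.2% in either direction). Their median log2 fold change was 4.14, and that of all genes was -0.04. By library size alone the median of all genes was -0.48, the share of calls that were higher fell from 43.5% to 24.5%, and 40 of the 50 genes were called higher. Of the 50 genes, 35 were called in both intervals, 6 in the first alone, 7 in the second alone and 2 in none; whether the changes of the 2 intervals differ was not tested. The 2 without a call were HORVU.MOREX.r3.5HG0505080.1, the flat gene above, and HORVU.MOREX.r3.4HG0411530.1, which had 2.75, 3.57 and 3.09 CPM at 4 DAP, 10.2, 12.1 and 10.6 CPM at 8 DAP and 21.4, 9.15 and 7.87 CPM at 16 DAP. For the latter the change from 4 to 8 DAP (log2 fold change 1.11 ± 0.50 SE, edgeR adjusted p = 0.0634) missed the threshold on the adjusted p.

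The genes that were called in 1 of the intervals are named here after their values were seen. Of the 6 called in the first alone, HORVU.MOREX.r3.2HG0184590.1 went from 10.1, 11.8 and 2.28 CPM to 535, 604 and 629 CPM (log2 fold change 5.37 ± 0.37 SE, edgeR adjusted p = 1.33e-13) and had 905, 989 and 437 CPM at 16 DAP. Its second change (log2 fold change 0.80 ± 0.30 SE, edgeR adjusted p = 0.0424) passed on the adjusted p and missed the fold minimum. HORVU.MOREX.r3.7HG0662100.1 went from 0.193, 0.159 and 0.488 CPM to 258, 236 and 265 CPM (log2 fold change 9.34 ± 0.94 SE, edgeR adjusted p = 1.11e-09) and had 523, 548 and 442 CPM at 16 DAP, where its second change (log2 fold change 1.45 ± 0.58 SE, edgeR adjusted p = 0.0551) missed the threshold on the adjusted p. The other genes of this kind were HORVU.MOREX.r3.1HG0088230.1, HORVU.MOREX.r3.3HG0325480.1, HORVU.MOREX.r3.5HG0462980.1 and HORVU.MOREX.r3.7HG0736590.1, the last of which had means of 16.6 CPM at 8 DAP and 20.8 CPM at 24 DAP. The 8 DAP means of these genes were above 50% of those at 24 DAP, except for HORVU.MOREX.r3.1HG0088230.1 and HORVU.MOREX.r3.7HG0662100.1.

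The 7 genes called in the second interval alone mostly had few or no counts before. HORVU.MOREX.r3.7HG0746420.1 had at most 1 count in any library of 4 and 8 DAP and 24.3, 28.2 and 109.7 CPM at 16 DAP (log2 fold change 11.13 ± 0.89 SE, edgeR adjusted p = 2.74e-09). HORVU.MOREX.r3.1HG0001370.1 and HORVU.MOREX.r3.5HG0497260.1 had no count at 4 and 8 DAP and 11.6, 21.4 and 26.4 CPM and 24.4, 19.0 and 19.8 CPM at 16 DAP. HORVU.MOREX.r3.1HG0067070.1 was an exception, with 8.87, 1.11 and 5.04 CPM at 4 DAP, 14.3, 13.6 and 11.8 CPM at 8 DAP and 60.0, 36.2 and 8.56 CPM at 16 DAP (log2 fold change 1.74 ± 0.63 SE, edgeR adjusted p = 0.0429). Its call was lost by library size alone, without a low-count filter and without any library of 8 DAP or replicates 1 or 2 of 16 DAP, where the edgeR adjusted p ran from 0.0773 to 0.206. The remaining genes of this kind were HORVU.MOREX.r3.2HG0138340.1 and the pair described next.

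The largest changes in the table between 8 and 16 DAP belonged to a pair of genes with nearby identifiers. HORVU.MOREX.r3.5HG0524870.1 had at most 2 counts in any library at 8 DAP and 2465, 3025 and 7962 CPM at 16 DAP, which is at least 28300-fold higher (log2 fold change 17.48 ± 1.14 SE, edgeR adjusted p = 7.07e-12). HORVU.MOREX.r3.5HG0524850.1 went from 0.126, 0.120 and 0.142 CPM to 1643, 1925 and 4451 CPM (log2 fold change 14.84 ± 0.98 SE, edgeR adjusted p = 7.74e-12). Both were therefore near 0 at 8 DAP and above 1000 CPM in every library at the next stage sampled. In both, the third library of 16 DAP was the highest by more than 2-fold.

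The smallest called change was that of HORVU.MOREX.r3.5HG0477070.1, with 41.1, 43.6 and 41.9 CPM at 8 DAP and 108, 56.9 and 37.4 CPM at 16 DAP (log2 fold change 1.07 ± 0.28 SE, edgeR adjusted p = 0.00351). Its libraries overlapped between the stages in CPM. By library size alone its log2 fold change was 0.67, with an edgeR adjusted p of 0.099, and without replicate 1 of 16 DAP it was 0.68, with an edgeR adjusted p of 0.0704. HORVU.MOREX.r3.3HG0306460.1 went from 493, 404 and 709.9 CPM to 1437, 1507 and 841 CPM (log2 fold change 1.64 ± 0.35 SE, edgeR adjusted p = 0.000463), and its stages did not overlap.

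Between 16 and 32 DAP most of the 50 genes were not called. At 32 DAP, 9 genes were lower and 2 higher than at 16 DAP, against 15.9% of all genes lower and 12.2% higher. The share called in either direction was 22% (11 of 50), against 28.1% of all genes. The share called lower was 18%, against 15.9%. With single libraries left out, 8 to 11 genes were called. Nothing is read from these gaps, because the rule capped the endosperm means of both stages, which limits the changes between them. The median log2 fold change of the 50 genes was -0.57, against -0.04 over all genes. Library number and stage cannot be told apart here either. With library size alone, 7 genes were lower and 2 higher, and the share of all calls that were higher moved from 43.4% to 55.7%.

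**Figure D3:**
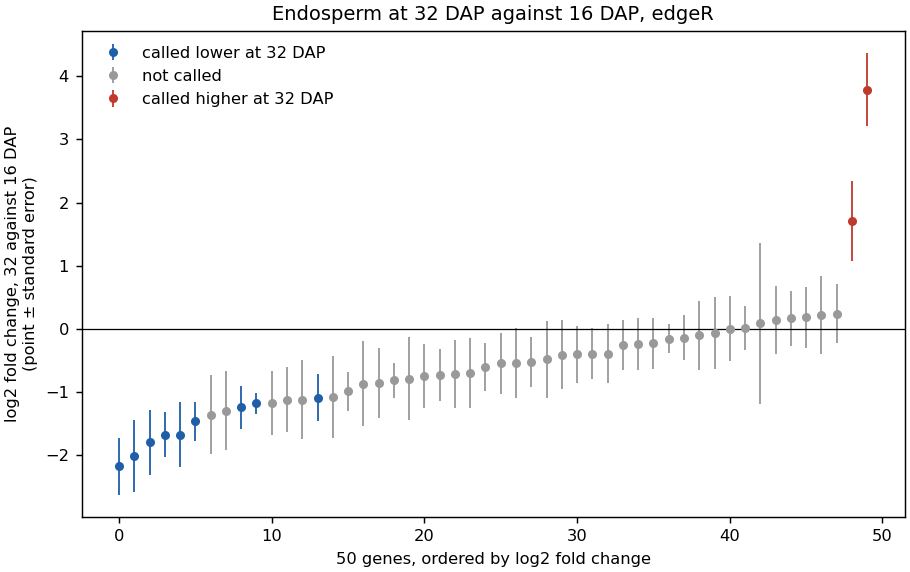
Log2 fold change of endosperm 32 DAP against endosperm 16 DAP with its standard error (vertical axis) for the 50 genes in order of their value (horizontal axis); colours mark genes called lower, called higher and not called by edgeR. The 9 genes called lower reach down to -2.17, the 2 called higher lie at 1.71 and 3.79, and the other 39 were not called.

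Of the 2 genes that were higher at 32 DAP, HORVU.MOREX.r3.2HG0138340.1 is the late gene described above (log2 fold change 3.79 ± 0.58 SE, edgeR adjusted p = 6.6e-06). The other, HORVU.MOREX.r3.1HG0063590.1, had 15.7, 7.39 and 0.391 CPM at 16 DAP and 31.3, 29.2 and 21.1 CPM at 32 DAP (log2 fold change 1.71 ± 0.63 SE, edgeR adjusted p = 0.034). Its 16 DAP libraries spread from 0.391 to 15.7 CPM, all below those of 32 DAP. Its call was lost with DESeq2 (adjusted p = 0.0503), without a low-count filter, and without replicates 2 or 3 of 16 DAP or replicates 1 or 2 of 32 DAP, where the edgeR adjusted p ran from 0.0726 to 0.0965.

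On the low side, HORVU.MOREX.r3.3HG0325480.1 fell from 84.1, 42.5 and 53.6 CPM to 14.6, 16.0 and 17.2 CPM (log2 fold change -2.17 ± 0.45 SE, edgeR adjusted p = 0.000427). HORVU.MOREX.r3.3HG0286520.1 fell from 132, 78.4 and 57.0 CPM to 22.0, 41.9 and 24.3 CPM (log2 fold change -1.79 ± 0.51 SE, edgeR adjusted p = 0.00693). In both genes every library of 32 DAP lay below every library of 16 DAP. Among genes above 1000 CPM, HORVU.MOREX.r3.7HG0751660.1 fell from 7379.6, 7473 and 4446 CPM to 3028, 4423 and 2406 CPM (log2 fold change -1.18 ± 0.17 SE, edgeR adjusted p = 1.03e-06); it was singled out after its values were seen. Its log2 fold change was -0.97 by library size alone and -0.95 without replicate 3 of 32 DAP, below the fold minimum. None of the 5 genes with the most counts was called. HORVU.MOREX.r3.1HG0068040.1 had a log2 fold change of -1.07 ± 0.65 SE (edgeR adjusted p = 0.203), and the other four lay between -1.36 and -0.22.

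In the embryo the 50 genes were scarce. They held between 0.00960% and 0.0263% of the counts of an embryo library, and 18 of them had at most 3 counts in each of the 12 embryo libraries. Only 10 reached a mean of 1 CPM in any embryo group. One gene, HORVU.MOREX.r3.7HG0751660.1, made up 80.9%, 56.8%, 38.3% and 52.7% of their summed level at the 4 embryo stages in turn. It had 119.8, 119.7 and 132 CPM in the embryo at 8 DAP and 53.2, 49.9 and 60.2 CPM at 32 DAP, and it was likewise measured in every maternal group, with 228, 231 and 182 CPM at 4 DAP. It had counts in every library.

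Levels in the embryo were also compared between successive stages. Between 8 and 16 DAP 2 rose and 1 fell, against 11.8% and 4.93% of all genes (16.7% in either direction). Between 16 and 24 DAP 8 rose and 1 fell, against 9.75% and 11.8% (21.5% in either direction). Between 24 and 32 DAP 5 fell and none was called higher, against 5.35% and 1.83% of all genes (7.18% in either direction). Their median log2 fold changes were 0.06, 0.06 and -1.75, against 0.01, 0 and 0 over all genes. In these 3 comparisons 26, 24 and 24 genes had at most 3 counts in every library of both groups. Over the remaining genes, with those under the floor of 1 group at their bound, the medians were 0.31, 0.13 and -0.41. Of the 8 rises between 16 and 24 DAP, 5 were in genes with at least 1 CPM at 24 DAP. The first count fell to 1 without replicate 2 of 8 DAP and without replicates 2 or 3 of 16 DAP, and the last fell to 3 without replicate 2 of 32 DAP. Embryo 24 and 32 DAP share no run of library numbers, so library number and stage cannot be told apart there.

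Called embryo changes with a mean of at least 5 CPM in the higher group belonged to 3 genes. The first, HORVU.MOREX.r3.7HG0662100.1, had 0.656, 0 and 1.03 CPM in the embryo of 8 DAP and 4.13, 66.0 and 71.0 CPM in that of 16 DAP. It had 17.1, 16.6 and 6.47 CPM at 24 DAP and 0.687, 0.833 and 0.769 CPM at 32 DAP. It rose between 8 and 16 DAP (log2 fold change 6.12 ± 0.78 SE, edgeR adjusted p = 8.3e-07) and fell between 24 and 32 DAP (log2 fold change -4.00 ± 0.72 SE, edgeR adjusted p = 0.000345). Replicate 1 of 16 DAP stood far below the other two. The fall between 16 and 24 DAP (log2 fold change -1.73 ± 0.60 SE, edgeR adjusted p = 0.0267) was lost with a library-number term, without a low-count filter, and without replicates 2 or 3 of 16 DAP or replicate 3 of 24 DAP, where the edgeR adjusted p ran from 0.0684 to 0.229.

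The other two were HORVU.MOREX.r3.2HG0138320.1 and HORVU.MOREX.r3.2HG0138340.1, whose identifiers lie close together. HORVU.MOREX.r3.2HG0138320.1 had 1.44, 1.56 and 2.57 CPM at embryo 16 DAP, 29.5, 33.5 and 34.4 CPM at 24 DAP and 1.98, 1.97 and 1.98 CPM at 32 DAP. HORVU.MOREX.r3.2HG0138340.1 had 0, 0 and 0.145 CPM, 9.16, 12.8 and 6.29 CPM and 1.01, 1.10 and 0.728 CPM at the same stages. Both rose from 16 to 24 DAP, the first with a log2 fold change 4.20 ± 0.54 SE, edgeR adjusted p = 4.96e-07, and the second with a log2 fold change 7.12 ± 0.93 SE, edgeR adjusted p = 9.34e-07. Both then fell to 32 DAP, the first with a log2 fold change -3.93 ± 0.53 SE, edgeR adjusted p = 9.1e-06, and the second with a log2 fold change -3.18 ± 0.63 SE, edgeR adjusted p = 0.000939. In the endosperm their levels at 32 DAP were 366, 291 and 313 CPM and 185, 167 and 173 CPM.

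Among the embryo libraries, the third replicate was the highest of its group in 25 of the 30 genes with a count at 8 DAP, in 25 of 34 at 16 DAP and in 26 of 39 at 24 DAP. These 3 libraries were the deepest of their groups, with 36732347, 27622164 and 26718277 counts, and belong to later runs of library numbers than the other two of each group. HORVU.MOREX.r3.1HG0068040.1 had 0.0656, 0.283 and 2.07 CPM at 8 DAP, 0.250, 0.520 and 2.68 CPM at 16 DAP and 1.18, 0.744 and 2.62 CPM at 24 DAP. The part of depth and of library number in these levels was not tested.

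In seed maternal tissues the 50 genes held their largest share of counts at 24 DAP. Their share of counts was 0.0244% to 0.0275% at 4 DAP, 0.0183% to 0.0198% at 8 DAP and 0.0196%, 0.0298% and 0.0314% at 16 DAP. At 24 DAP it was 0.256%, 0.503% and 0.153%, a mean of 0.304% ± 0.180 (SD, n = 3). HORVU.MOREX.r3.7HG0751660.1 alone gave 81.0%, 57.8%, 25.1% and 2.24% of the summed maternal level at 4, 8, 16 and 24 DAP. The other 49 genes held mean shares of 0.00502%, 0.00802%, 0.0202% and 0.297% at these stages. For 42 of the 50 genes maternal tissue at 24 DAP was the group with the highest level outside the endosperm. The maternal level at 24 DAP was a median of 2.56% of the endosperm level at the same stage (quartiles 1.08% and 4.12%). Replicate 2 was the highest of the 3 libraries in 40 genes and replicate 3 the lowest in 36.

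**Figure D4:**
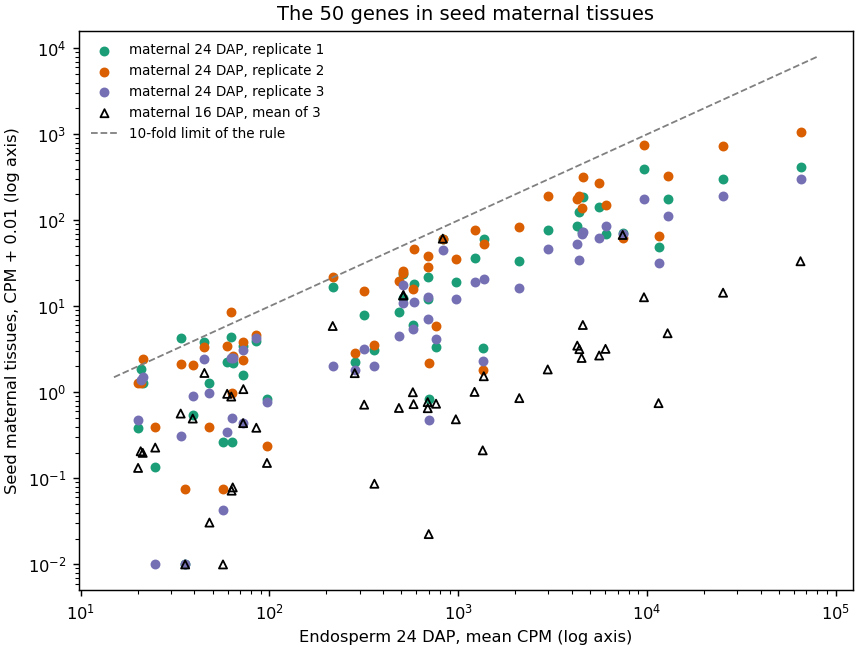
Level of each of the 50 genes in seed maternal tissues (CPM + 0.01, log axis) against its mean CPM in endosperm at 24 DAP (log axis); filled points are the 3 maternal libraries of 24 DAP, open triangles the maternal mean at 16 DAP, and the dashed line the 10-fold limit of the rule. The 24 DAP points lie mostly below the dashed line (median 2.56% of the endosperm mean) with replicate 2 on top in 40 genes.

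Between 16 and 24 DAP 37 of the 50 genes rose in maternal tissues and none was called lower, against 4.18% of all genes called higher and 3.94% lower (8.12% in either direction). The median log2 fold change was 3.85, or 3.48 over 49 genes with those under the floor at their bound, and that of all genes was 0.04. Leaving out 1 library of either stage left 33 to 39 genes called. HORVU.MOREX.r3.2HG0183360.1 rose most, from 0.309, 1.35 and 0.558 CPM to 49.1, 65.4 and 31.6 CPM (log2 fold change 6.07 ± 0.53 SE, edgeR adjusted p = 6.62e-09). HORVU.MOREX.r3.3HG0309960.1 had the smallest change among called genes with at least 5 CPM, from 0.0773, 1.62 and 0.961 CPM to 4.42, 8.63 and 2.47 CPM (log2 fold change 2.57 ± 0.59 SE, edgeR adjusted p = 0.00498). The gene with the most counts, HORVU.MOREX.r3.1HG0068040.1, went from 5.41, 43.3 and 51.6 CPM to 420.1, 1057 and 302 CPM (log2 fold change 4.19 ± 0.73 SE, edgeR adjusted p = 0.000201). In these 3 genes the stages did not overlap.

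The genes that peak in the endosperm at other stages moved in the same maternal libraries. By the same rule 76 genes peak in the endosperm at 16 DAP and 68 at 32 DAP. In the maternal libraries of 24 DAP the first set held 0.531%, 1.05% and 0.235% of counts and the second 0.233%, 0.344% and 0.145%, with replicate 2 highest and replicate 3 lowest in both. At 16 DAP the first set held 0.0254% to 0.0696% and the second 0.0385% to 0.0622%. The maternal level at 24 DAP was a median of 3.76% of the endosperm level for the first set and 5.32% for the second. What endosperm RNA carried over in dissection contributes to the maternal levels was not tested.

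Fewer of the 50 genes were called in the earlier maternal intervals. Between 8 and 16 DAP 22 genes rose and none was called lower, against 9.18% and 8.51% of all genes (17.7% in either direction), with a median of 2.20 (1.33 over 45 genes with bounds) against 0 over all genes. With a library-number term 1 of the 50 genes remained called, against 4.38% of all genes in either direction. All maternal libraries of 16 and 24 DAP share a run of library numbers, and its only other library is replicate 3 of embryo 24 DAP. The estimate for that run therefore rests on that embryo library. Without replicate 1 of 8 DAP 14 genes were called. Replicate 1 of 16 DAP was the lowest library in 40 of the 48 genes with a count at that stage. HORVU.MOREX.r3.2HG0138320.1 rose from 0.227, 0.0347 and 0.326 CPM to 21.6, 7.48 and 10.9 CPM (log2 fold change 5.95 ± 0.67 SE, edgeR adjusted p = 8.61e-08), and here replicate 1 was the highest. HORVU.MOREX.r3.1HG0068040.1 had 3.73, 7.91 and 9.02 CPM at 8 DAP and 5.41, 43.3 and 51.6 CPM at 16 DAP (log2 fold change 2.20 ± 0.68 SE, edgeR adjusted p = 0.017). Its stages overlapped, and the call was lost with the library-number term and without replicate 1 of 8 DAP or replicates 2 or 3 of 16 DAP, where the edgeR adjusted p ran from 0.0584 to 0.617.

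Between 4 and 8 DAP 9 genes rose in maternal tissues and 1 fell, against 6.61% and 4.24% of all genes (10.8% in either direction). The median was 1.45 (0.95 over 33 genes with bounds) against 0. Without replicate 1 of 4 DAP, 5 genes were called. Only HORVU.MOREX.r3.1HG0068040.1 of the genes that rose had a mean of at least 5 CPM at 8 DAP, with 0.380, 0.210 and 0.497 CPM at 4 DAP and 3.73, 7.91 and 9.02 CPM at 8 DAP (log2 fold change 4.27 ± 0.84 SE, edgeR adjusted p = 0.000631). The gene that fell was HORVU.MOREX.r3.1HG0063590.1, from 2.72, 2.76 and 1.15 CPM to 0.227, 0.104 and 0.398 CPM (log2 fold change -3.08 ± 0.79 SE, edgeR adjusted p = 0.00801). Its libraries did not overlap between these stages.

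Embryo and maternal tissue were compared at 3 stages. At 8 DAP 14 genes (28.0%) were lower in the embryo and none was called higher, against 29.3% and 21.8% of all genes (51.1% in either direction), so the share called lower was close to that of all genes. At 16 DAP 34 were lower and 2 higher, against 26.8% and 23.7% (50.5% in either direction), and at 24 DAP 39 were lower and 3 higher, against 25.0% and 22.0% (47.0% in either direction). The median log2 fold changes were -1.50, -4.58 and -7.00, against -0.14, 0 and 0 over all genes. With genes under the floor of 1 group at their bound they were -0.98 over 34 genes, -2.21 over 45 and -4.45 over 49. With a library-number term 11 genes were called at 16 DAP, 9 lower and 2 higher, against 33.3% of all genes in either direction. At 16 and 24 DAP the estimate of that term for the maternal libraries rests on replicate 3 of embryo 24 DAP. DESeq2 called 21 genes lower and 2 higher at 8 DAP, against 14821 of 29594 genes tested in either direction.

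At 24 DAP the largest fitted difference among genes with at least 5 CPM was that of HORVU.MOREX.r3.1HG0001070.1, which had no count in the embryo and 60.0, 52.7 and 20.8 CPM in maternal tissues, at least 281-fold lower in the embryo (log2 fold change -12.79 ± 1.61 SE, edgeR adjusted p = 7.5e-07). The 3 genes that were higher in the embryo were HORVU.MOREX.r3.2HG0138320.1, HORVU.MOREX.r3.2HG0138340.1 and HORVU.MOREX.r3.3HG0286520.1. HORVU.MOREX.r3.2HG0138340.1 had 9.16, 12.8 and 6.29 CPM in the embryo and 2.27, 2.87 and 1.83 CPM in maternal tissues (log2 fold change 2.12 ± 0.57 SE, edgeR adjusted p = 0.00227). With a library-number term its edgeR adjusted p was 0.0844, and it stayed called under the other alternatives run. HORVU.MOREX.r3.3HG0286520.1 had 2.13, 5.46 and 1.12 CPM and 0.820, 0.228 and 0.767 CPM (log2 fold change 2.34 ± 0.63 SE, edgeR adjusted p = 0.0024), a call lost with that term and without replicate 2 of embryo 24 DAP (edgeR adjusted p of 0.328 and 0.0582). The call of HORVU.MOREX.r3.2HG0138320.1 was lost under 10 of 13 alternatives. All 3 embryo libraries lay above all 3 maternal libraries in each of these genes. With a library-number term none of the 50 genes was called higher in the embryo at 24 DAP and 37 were called lower.

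At 16 DAP HORVU.MOREX.r3.7HG0662100.1 was higher in the embryo than in maternal tissues, with 4.13, 66.0 and 71.0 CPM against 0.502, 0.526 and 1.95 CPM (log2 fold change 5.57 ± 0.73 SE, edgeR adjusted p = 1.59e-07). The other gene higher there was HORVU.MOREX.r3.7HG0751660.1, with 146, 130.3 and 129.8 CPM against 75.9, 60.5 and 66.6 CPM (log2 fold change 1.04 ± 0.17 SE, edgeR adjusted p = 2.95e-06). The second call rests on the fold minimum: its log2 fold change was between 0.88 and 1.00 by library size alone, with median-ratio factors, with DESeq2, without replicate 1 of embryo 16 DAP and without replicate 2 of maternal 16 DAP, where it was lost. The first was kept under every alternative run. HORVU.MOREX.r3.7HG0635200.1 had at most 1 count in an embryo library and 1.12, 9.20 and 7.38 CPM in maternal tissues, at least 36.0-fold lower in the embryo (log2 fold change -7.97 ± 1.23 SE, edgeR adjusted p = 6.81e-06). At 8 DAP HORVU.MOREX.r3.1HG0068040.1 had 0.0656, 0.283 and 2.07 CPM in the embryo and 3.73, 7.91 and 9.02 CPM in maternal tissues (log2 fold change -2.79 ± 0.77 SE, edgeR adjusted p = 0.00232). HORVU.MOREX.r3.2HG0184590.1 had 16.9, 12.9 and 20.3 CPM and 42.9, 42.0 and 46.2 CPM (log2 fold change -1.31 ± 0.31 SE, edgeR adjusted p = 0.000539). In the last pair every embryo library lay below every maternal library.

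The order of the endosperm libraries and those of the other tissues before 16 DAP is given as a description. At 4 DAP 26 of the 50 genes had at most 3 counts in every endosperm library, and 36 in every maternal library. At 4 DAP all 3 endosperm libraries lay above all 3 maternal libraries in 11 of the 50 genes and below them in 6, and 17.2% of all genes tested lay above. At 8 DAP endosperm lay above maternal tissue in 44 genes and below it in 1, against 26.4% of all genes above. It lay above embryo in 45 genes, against 29.3% of all genes. The shares of all genes that lay below were not counted. Nothing is read from these counts, because the rule compared the tissues.

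Whether the changes over time differed between tissues was tested directly. From 4 to 8 DAP the change in the endosperm was above that in maternal tissues in 16 of the 50 genes and below it in none, against 20.7% and 17.0% of all genes (37.8% in either direction). HORVU.MOREX.r3.7HG0751660.1 gave the smallest p of these, with a difference of 5.18 ± 0.25 SE (edgeR adjusted p = 2.18e-16) on the log2 scale, and was singled out after its values were seen. It rose in the endosperm from 15.1, 22.5 and 25.0 CPM to 589.6, 609 and 682 CPM, while in maternal tissues it went from 228, 231 and 182 CPM to 119, 114 and 96.1 CPM. HORVU.MOREX.r3.6HG0538590.1 differed by 9.90 ± 1.06 SE (edgeR adjusted p = 1.42e-08). At 4 DAP 26 of the 50 genes had at most 3 counts in every endosperm library, and 36 in every maternal library. No bounds were computed for the differences of changes, so the sizes for such genes are uncertain. Library number and stage cannot be told apart in this contrast.

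From 8 to 16 DAP the change in the endosperm was above that in the embryo in 12 genes and below it in 1, against 3.93% and 10.9% of all genes (14.9% in either direction). In the embryo 32 of the 50 genes had at most 3 counts in every library of 8 DAP, and 30 in every library of 16 DAP. Without replicate 3 of embryo 8 DAP, 5 genes were called. The gene below was HORVU.MOREX.r3.7HG0662100.1, at -4.67 ± 0.94 SE (edgeR adjusted p = 0.000527). In the same interval the change in the endosperm was above that in maternal tissues in 14 genes and below it in 1, against 6.12% and 8.14% (14.3% in either direction). With a library-number term 4 genes were called, all higher, against 3.38% of all genes in either direction. For the maternal libraries of 16 DAP the estimate of that term rests on replicate 3 of embryo 24 DAP. The gene below was HORVU.MOREX.r3.5HG0505080.1, at -4.16 ± 0.74 SE (edgeR adjusted p = 0.000177), and with that term its difference was -0.59 (edgeR adjusted p = 1). With library size alone the share of calls that were higher among all genes moved from 54.9% to 74.1%, from 26.4% to 9.1% and from 42.9% to 18.0% in the 3 contrasts, and with median-ratio and upper-quartile factors the second was 37.0% and 42.4% and the third 52.0% and 53.1%. Library size alone gave 18 higher and none lower among the 50 genes, 11 higher and 1 lower, and 13 higher and 4 lower.

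By the chromosome named in their identifiers, 16 of the 50 genes (32.0%) were on 1H, which holds 11.7% of all entries and 13.4% of the entries that reach 20 CPM in some group. Of the entries that meet the endosperm rule at any stage, 17.8% were on 1H. The genes on 1H gave 70.9% of the summed CPM at endosperm 24 DAP, and 12 of the 16 had gene numbers under 10000. Of the rest 10 were on 7H, 7 each on 3H and 5H, 5 on 2H, 3 on 4H and 1 on 6H, and 1 was unplaced. These shares are a description, and gene numbers are not coordinates.

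Some of the 50 genes are neighbours by number. Gene numbers in the identifiers advance in steps of 10, and 14 of the 50 fall into 5 groups within 100 numbers of each other. The longest unbroken run was HORVU.MOREX.r3.1HG0005530.1, HORVU.MOREX.r3.1HG0005540.1, HORVU.MOREX.r3.1HG0005550.1 and HORVU.MOREX.r3.1HG0005560.1. At 24 DAP these had 514, 813 and 742 CPM, 4899, 4829 and 7022 CPM, 2039, 3179 and 3725 CPM and 1924, 2213 and 2184 CPM in that order. At 16 DAP they had 219, 591 and 1188 CPM, 788, 2055 and 5727 CPM, 709.8, 1619.8 and 6108 CPM and 459, 1381 and 3329 CPM. In all 4 the 16 DAP libraries stood in the same order, with replicate 1 lowest and replicate 3 highest, and in none did the 24 DAP libraries spread as widely. In all 4 the change between 8 and 16 DAP was called above that in maternal tissues, from 5.51 ± 1.32 SE (edgeR adjusted p = 0.00521) for the first to 6.82 ± 1.06 SE (edgeR adjusted p = 2.74e-05) for the second. None of the 4 was called with a library-number term (edgeR adjusted p from 0.204 to 1), and the first was not called without replicate 2 of maternal 8 DAP either (edgeR adjusted p = 0.199).

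Neighbours outside the rule were not always silent. Between the grouped genes lie 8 other entries, of which 3 stayed below 1 CPM in every group. HORVU.MOREX.r3.1HG0000800.1, between HORVU.MOREX.r3.1HG0000780.1 and HORVU.MOREX.r3.1HG0000810.1, had a mean of 20318 CPM at 24 DAP and 22496 CPM at 16 DAP, so the peak stage alone kept it out, and HORVU.MOREX.r3.1HG0001100.1 had 396 CPM at 24 DAP and 548 CPM at 32 DAP. HORVU.MOREX.r3.5HG0524860.1, between the pair that appeared between 8 and 16 DAP, stayed below 1 CPM in every group. These neighbours were singled out after their values were seen.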

How the data were processed

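RNA was sequenced from 39 libraries of 13 tissue-stage groups with 3 libraries each, as single-end poly-A libraries per the labels' protocols. The deposited values are raw counts, per the file headers: whole numbers per transcript entry and library, with no normalization. The submitters' processing notes name HISAT2 2.1.0, Subread 1.5.2, SAMtools and bcl2fastq; how strand and reads with several matches were treated is not given in the sources used here. The number of counts in a library limits the precision of low levels, and floors (3 counts in a library) cover counting error only.

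Levels are CPM over the library total. Tests used edgeR 4.0.16 (R 4.3.3, limma 3.58.1): filterByExpr (29594 genes tested), TMM factors, one quasi-likelihood model of 13 groups (26 residual degrees of freedom), 12 comparisons and 3 differences of changes, Benjamini-Hochberg adjustment over all genes tested. Alternatives were other scaling factors, DESeq2 1.42.0, no low-count filter, no fold minimum, a replicate block, a library-number term (6 runs, a new one where sorted numbers jump by over 100), other settings of the rule, and leaving out each library of the groups compared (for the rule, each endosperm library of 16, 24 and 32 DAP), for which the trend of the spread was kept from the full fit.

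Named genes are the 5 with the highest 24 DAP mean, and, among called genes, the 2 largest and 2 smallest changes in each endosperm comparison (at least 20 CPM in the higher group) and the largest and smallest in each other comparison (at least 5 CPM). The rule also takes genes at each threshold and the longest run of neighbouring gene numbers; others are marked where named. The genes and lists were chosen with earlier results of these data known. The reference table of 58438 genes matched 0 identifiers, so the planned lists by function were not run and no sequence is shown.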

Additional observations from a re-analysis of the deposited data

Results flagged for a closer look

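In 16 of the 50 genes the change from 4 to 8 DAP differed between endosperm and seed maternal tissues, in 13 the change from 8 to 16 DAP differed between endosperm and embryo, and in 15 it differed between endosperm and seed maternal tissues. These are tests of the difference of the changes with edgeR, in one model of all libraries. As shares of the 50 genes these are 32%, 26% and 30.0%, against 37.8%, 14.9% and 14.3% of all genes tested, in either direction. The first is below the share of all genes in either direction, but all 16 were higher in the endosperm, against 20.7% of all genes. Many of the 50 genes had at most 3 counts in every library of a group compared, as given above, which limits these counts. For that contrast DESeq2 called 31 of the 50 genes, against 11653 of 29594 genes tested. With a library-number term the count from 8 to 16 DAP against maternal tissues is 4, all higher in the endosperm. For the maternal libraries of 16 DAP the estimate of that term rests on replicate 3 of embryo 24 DAP. The term could not be fitted for the change from 4 to 8 DAP.

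Among the genes named by rule, a pair moved in opposite directions in the tissues compared, without overlap of libraries between the stages. Outside that list, HORVU.MOREX.r3.7HG0751660.1 did so too between 4 and 8 DAP in endosperm and maternal tissues, with the values given above. The remaining genes were not searched. Both genes of the pair started below 1 CPM in the endosperm. HORVU.MOREX.r3.1HG0063590.1 went from a mean of 0.0542 to 0.713 CPM in the endosperm between 4 and 8 DAP and from 2.21 to 0.243 CPM in maternal tissues, a difference of 7.41 ± 1.69 SE on the log2 scale (edgeR adjusted p = 0.000712). HORVU.MOREX.r3.2HG0138340.1 went from 0.403 to 10.6 CPM in the endosperm between 8 and 16 DAP and from 4.05 to 1.66 CPM in maternal tissues, a difference of 6.52 ± 0.93 SE (edgeR adjusted p = 1.16e-05), and it stayed called with the library-number term.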

How the results depend on the processing

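The endosperm counts kept their size: 39 to 41 genes were called between 4 and 8 DAP, 40 to 42 between 8 and 16 DAP and 8 to 11 between 16 and 32 DAP when 1 library was left out. Leaving out 1 library gave 1 to 4 in the embryo from 8 to 16 DAP, 7 to 8 from 16 to 24 DAP and 3 to 6 from 24 to 32 DAP. It gave 5 to 11, 14 to 29 and 33 to 39 in the 3 maternal intervals, and 11 to 15, 32 to 39 and 40 to 43 for embryo against maternal tissue. For the differences of changes it gave 14 to 16, 5 to 14 and 13 to 17. DESeq2 called 12 genes in the embryo from 24 to 32 DAP and 19 in maternal tissues from 4 to 8 DAP. It called 23 for embryo against maternal tissue at 8 DAP. For the differences of changes it called 31 from 4 to 8 DAP against maternal tissues and 29 from 8 to 16 DAP against the embryo. Over all 29594 genes tested, DESeq2 called 2622, 3445, 14821, 11653 and 5009 in these comparisons, in the same order. A library-number term left 1 gene in maternal tissues from 8 to 16 DAP, against 4.38% of all genes. It left 11 for embryo against maternal tissue at 16 DAP, against 33.3%. For the change from 8 to 16 DAP against maternal tissues it left 4, against 3.38%. In each of these the estimate for the maternal libraries of 16 DAP rests on replicate 3 of embryo 24 DAP. The cause of these differences was not tested. The term could not be fitted for endosperm 8 against 4 DAP, endosperm 32 against 16 DAP, embryo 32 against 24 DAP and the change from 4 to 8 DAP.

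With TMM factors the summed shares were 0.0172%, 23.8%, 24.7% and 13.1% in endosperm at 4, 16, 24 and 32 DAP, 0.0131%, 0.0185%, 0.0150% and 0.00938% in embryo at 8 to 32 DAP, and 0.0204%, 0.0153% and 0.0205% in maternal tissues at 4 to 16 DAP, and 32 of the 50 genes remained in the rule's list. Library size alone moved the median log2 change of all genes to 0.84, -0.48 and 0.14 for endosperm 8 against 4 DAP, endosperm 16 against 8 DAP and embryo 16 against 8 DAP, and to 0.92, -0.81 and -0.67 for the 3 differences of changes, from 0.23, -0.25 and -0.15. Of 28 results on genes named by rule, 23 stayed past the threshold under every alternative run, and 0 of 382 alternatives changed a direction. The 382 include the setting with no fold minimum, which could not lose a call or change a direction. Other calls described above, several of them lost under alternatives, are not among the 28.

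In no comparison did the deviations of same-numbered replicates correlate above 0.1 in every pair, so the numbers are not taken as pairs. Same-numbered pairs still lay above all others in endosperm 16 against 8 DAP (0.0649, 0.1761 and 0.1616, others at most -0.0074). They also did in embryo against maternal tissue at 24 DAP (0.0744, 0.0573 and 0.05, others at most -0.0164). A replicate block gave 41, 42 and 11 called genes in the endosperm and 12, 23 and 36 in the maternal intervals. It changed no count by more than 1.5 times.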
